A study of Mus musculus with 6 samples.

Results

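The posterior Hoxa genes and their partners were followed in MLL-AF9 leukemia stem cells (LSCs) with and without the mechanosensitive ion channel Piezo1. A set of 10 genes was taken by name from the 55367 genes listed: 7 genes of the Hoxa cluster (Hoxa3, Hoxa5, Hoxa6, Hoxa7, Hoxa9, Hoxa10 and Hoxa11), the HOX partners Meis1 and Pbx3, and Mecom, which encodes EVI1. They were named for their place in this leukemia, with earlier results of these data known, and all 10 had values and passed the filter on low values. The study sequenced 3 WT and 3 Piezo1cKO libraries of LSCs sorted from bone marrow leukemia cells of mice with an age label of 8 to 10 weeks. Piezo1cKO cells came from Mx1-cre; Piezo1 fl/fl donors, and WT cells came from Piezo1 fl/fl littermates, so the controls carried the loxP sites but no Cre. Both genotypes received poly(I:C), which induces the interferon-driven Mx1-cre in blood cells and in other tissues. Lineage-negative marrow of both was transduced with the same MLL-AF9 retrovirus carrying a YFP marker and grown as leukemia in irradiated C57BL/6 recipients. Whether the libraries of a group came from separate leukemias is not given in the sources used here, so the p-values measure the spread between these libraries, which may be technical.

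MLL-AF9 joins the DNA-binding part of the histone methyltransferase MLL to a subunit of a transcription elongation complex, and it keeps the posterior Hoxa genes and Meis1 switched on in cells that would otherwise silence them on maturing. HOXA9 is the best known of these, a homeodomain factor that binds DNA together with the TALE homeodomain proteins MEIS1 and PBX3, and forced Hoxa9 with Meis1 is itself leukemogenic in mice. MECOM belongs to another family. It is a zinc finger transcription factor of hematopoietic stem cells, made from a distal start as MDS1-EVI1 and from a proximal start as EVI1, and it is expressed in MLL-rearranged leukemias that arise from immature cells.

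The sequences before 3 starts are shown because these genes gave 3 different readouts: Hoxa5 had the largest proportional rise among the Hoxa members with reads in every library, Hoxa9 showed no detectable difference, and Mecom was nearly absent from 1 genotype. They are RefSeq sequences of GRCm38.p6, written 5′ to 3′ on the minus strand on which all 3 genes lie, with CpG dinucleotides in capitals. They hold the 250 bases before the start, or, at the distal Mecom start, the 187 of these that lie outside annotated exons. The positions are chr6:52204588-52204837 for Hoxa5, chr6:52227371-52227620 for Hoxa9, inside the longer Hoxa9 gene model, and chr3:30509823-30510009 for Mecom, inside the longer Mecom gene model.
Hoxa5: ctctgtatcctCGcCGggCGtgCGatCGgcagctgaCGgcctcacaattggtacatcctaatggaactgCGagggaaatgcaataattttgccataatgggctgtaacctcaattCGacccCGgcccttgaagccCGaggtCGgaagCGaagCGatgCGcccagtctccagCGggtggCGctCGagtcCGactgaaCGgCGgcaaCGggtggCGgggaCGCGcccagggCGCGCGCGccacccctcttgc
Hoxa9: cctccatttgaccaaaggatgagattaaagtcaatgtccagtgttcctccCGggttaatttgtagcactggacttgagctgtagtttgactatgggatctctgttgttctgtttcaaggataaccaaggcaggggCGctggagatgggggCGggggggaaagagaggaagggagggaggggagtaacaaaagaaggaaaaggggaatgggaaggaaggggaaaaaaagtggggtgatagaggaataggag
Mecom distal: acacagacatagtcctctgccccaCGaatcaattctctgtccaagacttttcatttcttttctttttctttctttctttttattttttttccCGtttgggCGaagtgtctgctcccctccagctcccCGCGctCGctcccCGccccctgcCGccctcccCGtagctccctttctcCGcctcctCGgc
The Hoxa5 window held 28 CpG dinucleotides, a number reached by 7.61% of the 32851 mouse promoter windows of the same length. The Hoxa9 window held 3, below the median of 6 for all windows. None of these 3 stretches held a match, on either strand, to the 5 motifs searched, and the share of all windows with a match was 16.6% for ACGTG (hypoxia-inducible factor), 2.83% for TGATTNAT (HOX with PBX), 15.9% for TGACAG (MEIS and TGIF), 3.45% for TGATGNAA (ATF4 with C/EBP) and 9.99% for AGATAA (EVI1 and related zinc finger factors). For the hypoxia-inducible factor only ACGTG was searched. The paper gives GCGTG or GCGTA as the HIF1A sites it mutated, and these forms were not among the motifs searched. The Hoxa5 stretch printed above does hold GCGTG, near its upstream end. Of the other members, Hoxa11 had 2 matches to ACGTG, at 227 and 19 bases before its start. Hoxa3 had 1 match to TGACAG, at 13 bases, and the second Mecom start had 1, at 86 bases.

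The deposited values are on a log2 scale and shrunken towards each gene's mean, most strongly for genes with few reads, so a fold change on that scale understates the change of a low gene. Whole reads could be recovered from them, and values are given as recovered reads for each library and, for tests, on both scales. The libraries held 14111731 to 15483164 recovered reads. The genotypes stood apart, with 92.7% of the variance of the deposited values on a principal component that separated them. Of 16746 genes tested on the deposited values, 63% passed an adjusted p of 0.05 (limma, Benjamini-Hochberg), and 0.818% also changed by more than 1 on the log2 scale, which is called a DEG below. On recovered reads, tested with limma-voom, 62.9% of 17352 genes passed and 24.9% were DEGs. The DEGs were 43 higher and 94 lower on the deposited scale, and 2209 higher and 2111 lower on recovered reads. Piezo1 itself held 104, 92 and 113 reads in the WT libraries and 35, 58 and 45 in the Piezo1cKO libraries, 45.9% of WT after normalization, with a deposited log2 fold change of -0.29 ± 0.04 (SE, n = 3 per group, limma adjusted p = 5.8e-06). The table counts reads over the whole gene, so reads from inside and outside the deleted part cannot be told apart. What the remaining reads come from was not tested.

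Of the 10 members, 7 passed the adjusted p on both scales, against 63% of all genes tested on the deposited values. Hoxa3, Hoxa5, Hoxa7, Hoxa11 and Pbx3 rose in Piezo1cKO LSCs (31.6% of all genes rose), Meis1 and Mecom fell (31.4% of all genes fell), and Hoxa6, Hoxa9 and Hoxa10 were not called. In 8 of the 10 the libraries of the 2 genotypes did not overlap, as in 66.6% of all genes tested. The share of members called was thus near that of all genes, and what set the members apart from each other was the size and direction of the difference. The 10 had a median log2 fold change of 0.06 with deposited values and of 0.55 with recovered reads, also with Hoxa11 and Mecom at the bounds given below, while the median of all genes tested was 0.00 on both. On the deposited scale 1 member, Mecom, was a DEG (lower, as were 0.561% of all genes, with 0.257% higher), and on recovered reads 3 were, Hoxa5, Hoxa11 and Mecom (24.9% of all genes).

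**Figure D1:**
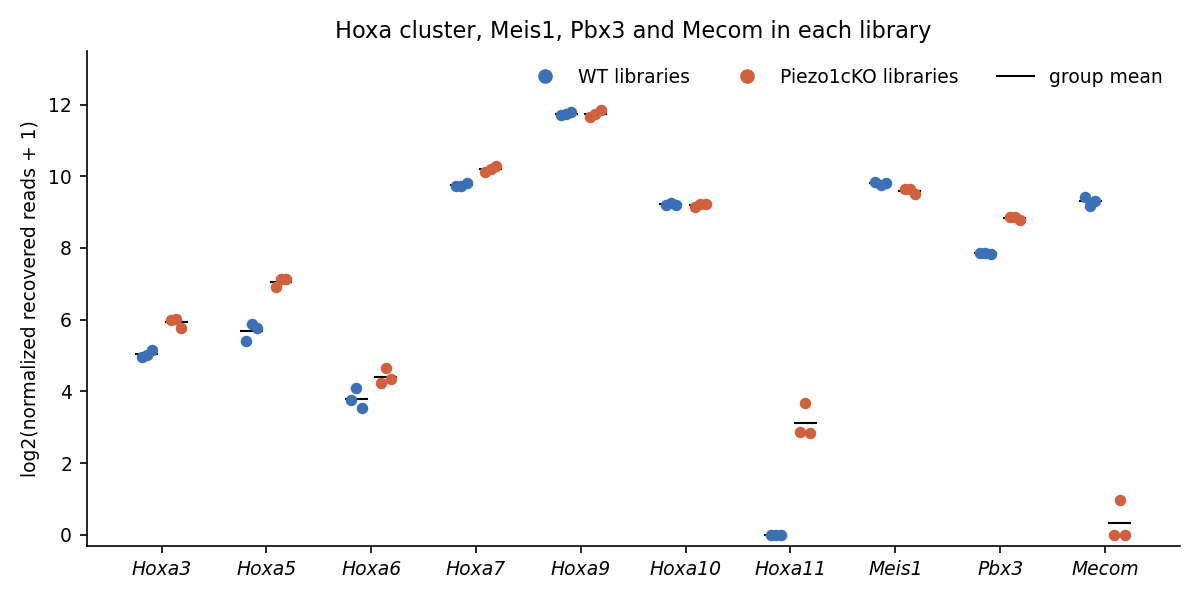
Log2 of normalized recovered reads plus 1 in each of the 3 WT and 3 Piezo1cKO libraries for the 10 genes, with a bar at each group mean. Mecom stood at 574 to 712 reads in WT and at 0 or 1 in Piezo1cKO libraries, Pbx3 and Hoxa5 were higher in Piezo1cKO, and the points of Hoxa9 and of Hoxa10 overlapped between genotypes.

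Hoxa9 and Hoxa10, the members with the strongest expression of the cluster along with Hoxa7, showed no detectable difference between genotypes. Hoxa9 held 3433, 3368 and 3677 reads in WT and 3065, 3522 and 3609 in Piezo1cKO libraries. The groups overlapped, with normalized means of 3422 ± 105 (SD, n = 3) and 3436 ± 235 (SD, n = 3). The 95% interval of the fold on recovered reads was 0.939 to 1.07, and the deposited log2 fold change was 0.00 ± 0.03 (SE, adjusted p = 0.946). Hoxa10, a neighboring gene that is likewise expressed in early blood progenitors, held 599, 600 and 615 reads in WT and 536, 617 and 583 in Piezo1cKO libraries. These also overlapped, and the interval of the fold was 0.912 to 1.07 (deposited log2 fold change -0.01 ± 0.03, SE, adjusted p = 0.776).

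Hoxa7, which lies next to Hoxa9, rose moderately. Its reads were 878, 837 and 927 in WT and 1059, 1212 and 1234 in Piezo1cKO libraries. Every Piezo1cKO library was above every WT library, at a normalized mean 1.37-fold that of WT (95% interval of the fitted fold 1.27 to 1.48, deposited log2 fold change 0.30 ± 0.04, SE, adjusted p = 8.0e-07). Of the exon bases of Hoxa7, 20.4% are shared with the antisense gene Hoxaas3, and the library preparation does not mark strand, so reads there cannot be told apart.

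Hoxa5 gave the largest proportional rise among Hoxa members with reads in every library. This gene, which restrains erythroid and favors myeloid differentiation of progenitors, held 43, 57 and 56 reads in WT and 114, 144 and 137 in Piezo1cKO libraries. The lowest Piezo1cKO library held more reads than any WT library and the normalized mean was 2.6-fold higher (51 ± 8.27 against 133 ± 12, SD, n = 3 each). The fitted fold had a 95% interval of 2.07 to 3.3, and the deposited log2 fold change was 0.40 ± 0.04 (SE, adjusted p = 1.0e-07).

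Among the members with few reads, Hoxa3 and Hoxa11 rose and Hoxa6 was not called. Hoxa3 held 31, 31 and 36 reads in WT and 60, 66 and 53 in Piezo1cKO libraries, without overlap. Its normalized mean was 1.89-fold that of WT (deposited log2 fold change 0.17 ± 0.03, SE, adjusted p = 0.00034), and parts of its exons are shared with Hoxaas2, Hoxaas3 and Gm29430 on the opposite strand. Hoxa11, the most 5′ of the members and better known from limb and kidney development, had 0 reads in the 3 WT libraries and 6, 12 and 6 reads in the Piezo1cKO libraries. Against a floor of 3 reads per library it was at least 2.65-fold higher (deposited log2 fold change 0.06 ± 0.01, SE, adjusted p = 0.00053). Of its exon bases, 35% are shared with Hoxa11os on the opposite strand, which held 3, 1 and 1 reads in WT and 2, 5 and 3 in Piezo1cKO libraries. Hoxa6 held 13, 16 and 11 reads in WT and 17, 25 and 19 in Piezo1cKO libraries. These did not overlap, but the difference did not pass the test (fold 1.56, 95% interval of the fitted fold 0.993 to 2.45, adjusted p = 0.0853 on the deposited scale). It passed, at a log2 fold change of 0.07, where the libraries were shifted to 1 common median (adjusted p = 0.0174).

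**Figure D2:**
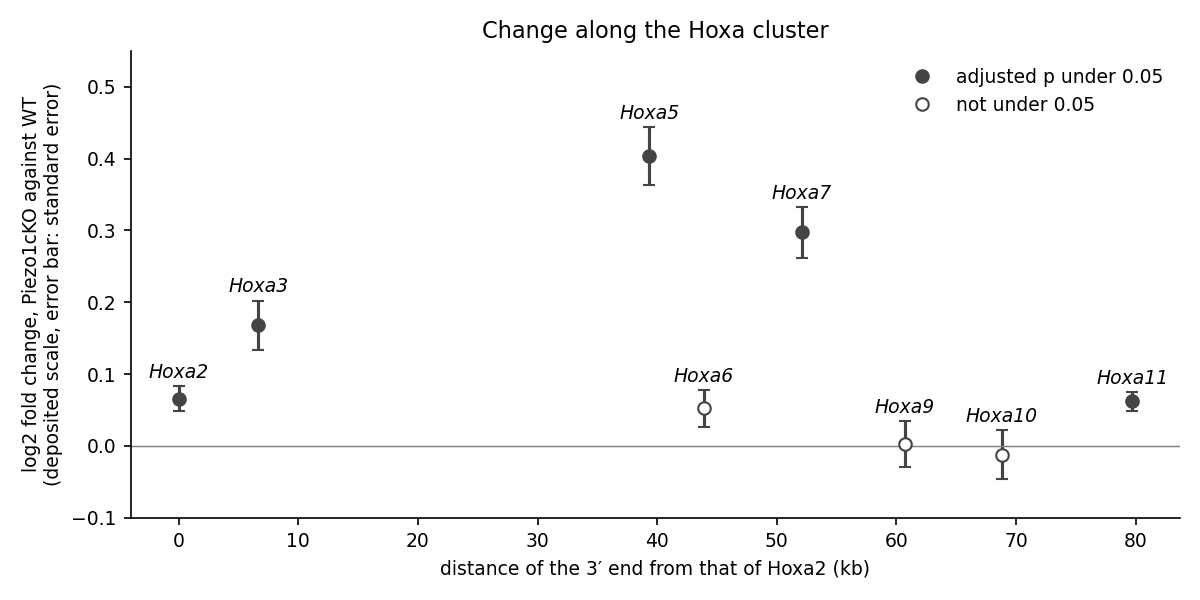
Deposited-scale log2 fold change, Piezo1cKO against WT, with its standard error, for the 7 Hoxa members and Hoxa2, placed by the distance in kb of each gene's 3′ end from that of Hoxa2. Hoxa5 and Hoxa7, in the middle of the cluster, had the largest values (0.40 and 0.30), with Hoxa9 and Hoxa10 at 0.00 and -0.01 beyond them and Hoxa11 at 0.06. Low genes such as Hoxa2 and Hoxa11 are shrunken most on this scale.

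The make-up of the Hoxa reads shifted with these differences. Of the normalized reads of the 7 Hoxa members, Hoxa9 made up 68.6 to 69.1% in WT and 62.9 to 64% in Piezo1cKO libraries. Hoxa7 made up 17.1 to 17.6% and 21.7 to 21.9%, and Hoxa5 made up 0.861 to 1.16% and 2.35 to 2.57%. None of these 3 shares overlapped between genotypes. The reads of Hoxa7 per read of Hoxa9, a ratio within a library that no scaling of the libraries can change, were 0.249 to 0.256 in WT and 0.342 to 0.346 in Piezo1cKO libraries. In an exact two-sided permutation test each gave p = 0.1, the smallest that 3 against 3 libraries allow (0.114 adjusted over the 8 shares and ratios compared). The sum over the 7 was 4974 ± 137 (SD, n = 3) normalized reads in WT and 5424 ± 334 (SD, n = 3) in Piezo1cKO libraries, which overlapped (exact permutation p = 0.2).

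The remaining genes of the cluster were low, and those called on the deposited scale were higher in Piezo1cKO. Of 10 further genes of the locus, 5 could be tested, of which 4 rose, 0 fell and 1 was not called. Hoxa2 held 0, 1 and 0 reads in WT and 5, 16 and 6 in Piezo1cKO libraries (adjusted p = 0.00255). Hotairm1, a myeloid noncoding RNA of the 3′ end of the cluster, held 9, 8 and 5 reads in WT and 20, 30 and 23 in Piezo1cKO libraries (adjusted p = 0.00036). Hoxaas3 held 17 reads in each WT library and 29, 31 and 32 in the Piezo1cKO libraries (adjusted p = 0.00526), and Hoxaas2 was not called (adjusted p = 0.243). Hoxa4 went the other way, with 5, 2 and 5 reads in WT and 0 in all Piezo1cKO libraries, and passed the test on recovered reads alone (adjusted p = 0.00075). The other Hox clusters were nearly silent: 23 of 28 Hoxb, Hoxc and Hoxd genes had at most 3 reads in every library. Hoxb4 (20, 24 and 16 reads against 11, 10 and 16) and Hoxb13 (16, 18 and 10 against 21, 19 and 28) were tested on the deposited scale and neither was called (adjusted p = 0.0986 and 0.0744).

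The genes around the cluster moved in both directions. Within 1 Mb of Hoxa5, 24 genes were tested, including the cluster itself, of which 9 rose and 2 fell. The 2 that fell were Tax1bp1 (79.5% of WT) and Jazf1 (54.9% of WT). Cbx3, which encodes a heterochromatin protein, rose to 130% of WT and Hibadh to 115%. Skap2, the protein-coding gene beside the cluster, was not called, with 3504, 3150 and 3491 reads in WT and 3127, 3137 and 3048 in Piezo1cKO libraries (adjusted p = 0.0964).

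The HOX partners moved in opposite directions, Meis1 down slightly and Pbx3 up by 1.99-fold. Meis1, whose product binds DNA with HOXA9 and is limiting for this leukemia, held 951, 863 and 929 reads in WT and 762, 827 and 717 in Piezo1cKO libraries. Every Piezo1cKO library was below every WT library, at a mean 86.8% of WT (95% interval of the fitted fold 0.804 to 0.936, deposited log2 fold change -0.13 ± 0.03, SE, adjusted p = 0.00278). Of its exon bases, 9.77% are shared with Gm37818 on the same strand, which held 0, 2 and 1 reads in WT and 5, 5 and 4 in Piezo1cKO libraries. Pbx3, the PBX protein most tied to Hoxa9-driven leukemia, held 240, 231 and 234 reads in WT and 449, 473 and 435 in Piezo1cKO libraries. The replicates were tight in both groups (230 ± 4.55 and 458 ± 13.6 normalized reads, SD, n = 3) and did not overlap, at a fold of 1.99 (95% interval of the fitted fold 1.8 to 2.19, deposited log2 fold change 0.53 ± 0.04, SE, adjusted p = 3.9e-10). On recovered reads its fitted log2 fold change was 0.99, just under the DEG threshold of 1. The reads of Pbx3 per read of Meis1 were 0.252 to 0.268 in WT and 0.572 to 0.607 in Piezo1cKO libraries, and per length, in reads per kilobase of exon, the ratio was 0.444 ± 0.015 in WT and 1.02 ± 0.03 in Piezo1cKO libraries (SD, n = 3 each, exact permutation p = 0.1, the smallest possible).

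Other TALE genes were split. Of 10 further genes listed, the PBX-binding protein gene Pbxip1 among them, 8 were tested, of which 4 rose, 3 fell and 1 was not called. Pbx4 rose to 1.98-fold (111, 123 and 112 reads against 220, 196 and 247, adjusted p = 4.8e-07), Pbxip1 to 1.51-fold (adjusted p = 2.0e-08) and Pbx2 to 1.29-fold (adjusted p = 0.018). Meis3 held 1, 1 and 0 reads in WT and 8, 7 and 8 in Piezo1cKO libraries (adjusted p = 0.0007). Pknox1 fell to 67.7% of WT (adjusted p = 3.1e-09) and Tgif1 to 88.1% (adjusted p = 0.00442). Tgif2 was not called (adjusted p = 0.0821), and Meis2 and Pknox2 had at most 3 reads in every library.

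**Figure D3:**
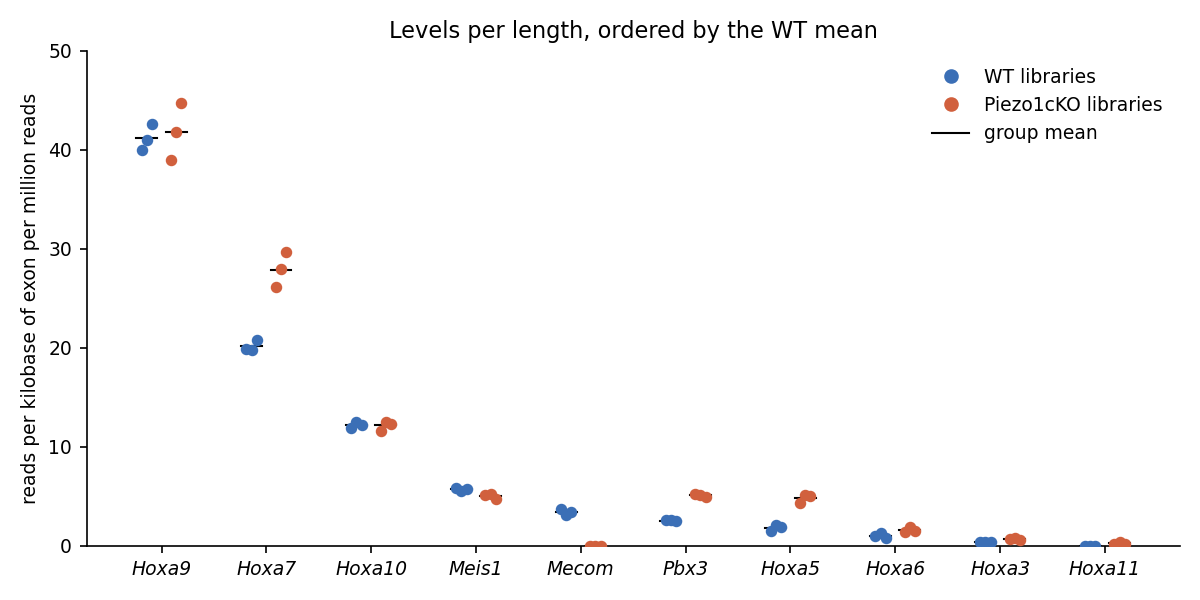
RPKM (recovered reads per kilobase of exon, scaled to the library total) of the 10 genes in each library, ordered by the WT mean, with a bar at each group mean. Hoxa9 was highest in both genotypes near 41, followed by Hoxa7 at 20.1 in WT and 27.9 in Piezo1cKO, while Mecom was between Meis1 and Pbx3 in WT at 3.42 and last in Piezo1cKO.

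Per length, as RPKM (reads per kilobase of exon, scaled to the library total), the order of the members in WT was Hoxa9 (41.2), Hoxa7 (20.1), Hoxa10 (12.2), Meis1 (5.71), Mecom (3.42), Pbx3 (2.53), Hoxa5 (1.83), Hoxa6 (1.01), Hoxa3 (0.357) and Hoxa11 (0). No gene overlapped the next in this order across the 3 libraries. In Piezo1cKO libraries the first 3 were the same, at 41.8, 27.9 and 12.2. Pbx3 (5.09), Meis1 (5.01) and Hoxa5 (4.81) followed at levels that overlapped each other, then Hoxa6 (1.59), Hoxa3 (0.681), Hoxa11 (0.238) and Mecom (0.00178).

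Mecom was expressed in every WT library and nearly undetected in Piezo1cKO libraries. It held 712, 574 and 654 reads in WT and 0, 1 and 0 in Piezo1cKO libraries. The normalized mean was 633 ± 55.9 (SD, n = 3) in WT, and the whole Piezo1cKO group held 1 read against 1940 in WT, a ratio of 1880 with a 95% counting interval of 337 to 74280. The interval covers counting error only. On the deposited scale the log2 fold change was -2.42 ± 0.04 (SE, adjusted p = 1.3e-18), the 7th largest in size of 16746 genes. In bulk RNA, fewer cells that express a gene and less RNA per cell cannot be told apart.

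The transcribed stretches inside the Mecom locus went with it. Gm37024 is an unspliced gene model of 868 bases at chr3:30488426-30489293 (GRCm38, GENCODE). It lies on the strand opposite to Mecom, 59.6 kb downstream of the start of the longer Mecom gene model. It held 395, 332 and 380 reads in WT and 0 in every Piezo1cKO library, at least 115-fold lower (deposited log2 fold change -1.78, adjusted p = 2.3e-17). Per length it was above Mecom itself in WT, at 27.9 ± 1.83 against 3.42 ± 0.294 RPKM (SD, n = 3 each). Gm38197 held 25, 24 and 25 reads in WT and 0 in every Piezo1cKO library (at least 7.71-fold lower, adjusted p = 3.9e-07), and Gm38066 held 7, 15 and 12 against 0 (at least 3.56-fold lower, adjusted p = 0.00019). All 3 models lie within the Mecom gene and share no exon bases with it, and since the libraries do not mark strand, reads of unspliced Mecom RNA and of these models cannot be told apart. The antisense gene Mecomos held 3, 7 and 2 reads in WT and 0 in Piezo1cKO libraries and was below the filter of the deposited scale.

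Outside the gene, 2 neighbors on the upstream side fell and 4 were not called. Of the 9 genes tested within 1 Mb of Mecom, 5 fell and 0 rose, the 3 others that fell being those inside the locus. Prkci, which encodes an atypical protein kinase C, held 561, 471 and 511 reads in WT and 142, 178 and 169 in Piezo1cKO libraries, 32.7% of WT (adjusted p = 3.7e-12). Skil, which encodes the SMAD corepressor SnoN, held 2302, 1927 and 2111 against 1193, 1156 and 1186, 57.7% of WT (adjusted p = 3.7e-10). These 2 lie 448 and 547 kb from the start of the longer Mecom gene model. The genes between them and Mecom were Mynn, Sec62, Gpr160 and Phc3, which stood at 94.1 to 108% of WT and were not called (adjusted p = 0.155 to 0.292).

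**Figure D4:**
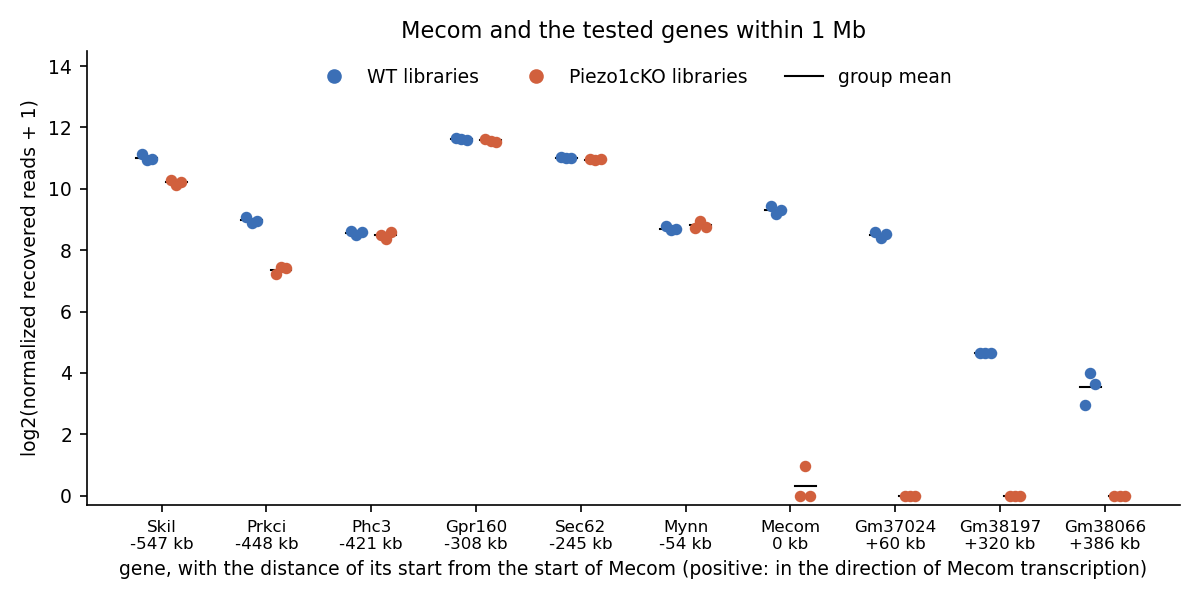
Log2 of normalized recovered reads plus 1 for Mecom and the 9 genes tested within 1 Mb of it, in each WT and Piezo1cKO library. Genes are ordered by the distance of each start from the start of the longer Mecom gene model. Mecom and the 3 models within it fell to 0 or 1 read, Skil and Prkci at the far upstream end were lower, and the 4 genes between were not called.

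Prdm16, the closest relative of Mecom and also a stem cell regulator, fell as well. It held 281, 317 and 284 reads in WT and 16, 19 and 13 in Piezo1cKO libraries, 5.6% of WT (deposited log2 fold change -1.30 ± 0.04, SE, adjusted p = 5.7e-15). The PRDM genes moved in both directions. Of 14 listed, Prdm16 included, 8 were tested, of which 5 rose, 2 fell and 1 was not called. Prdm4 fell to 39.3% of WT (adjusted p = 4.0e-10), while Prdm9 rose to 1.6-fold (adjusted p = 1.8e-07) and Prdm15 to 1.35-fold (adjusted p = 1.3e-06).

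EVI1 cofactors and reported EVI1 targets were listed as well. Of 9 cofactors, all tested, 2 rose, 3 fell and 4 were not called. The corepressor gene Ctbp1 fell to 47.8% of WT (adjusted p = 2.9e-10) and the histone deacetylase gene Hdac2 to 48.8% (adjusted p = 1.6e-11), Smad3 fell to 75.4% (adjusted p = 0.00827) and Runx1 rose to 1.35-fold (adjusted p = 3.5e-06). Of 10 EVI1 targets, 7 rose and 3 fell. The largest were rises of Adgrg1, a surface receptor of stem cells, at 2.04-fold (adjusted p = 1.4e-13), of Angpt1 at 2.21-fold (adjusted p = 1.4e-09), of Gata2 at 1.82-fold (adjusted p = 7.9e-12) and of Zbtb16 at 2.06-fold (adjusted p = 6.9e-09). On the deposited log2 scale the median difference was -0.04 over the cofactors and 0.22 over the targets, against 0.00 over all genes.

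Genes tied to the HOXA9 and MEIS1 program went both ways. Of 22, all tested, 10 rose, 8 fell and 4 were not called (median 0.00 on the deposited log2 scale). The largest in size on that shrunken scale was the kinase gene Pim1, which fell from 4459, 4287 and 4582 reads in WT to 1034, 1242 and 1166 in Piezo1cKO libraries, 26.6% of WT (log2 fold change -1.35, adjusted p = 2.7e-17). Flt3, a receptor tyrosine kinase gene of progenitors, rose 2.48-fold (639, 656 and 687 reads against 1582, 1608 and 1570, adjusted p = 4.9e-14). The cell cycle gene Ccnd1 rose 2.93-fold (adjusted p = 2.9e-10). Mycn and Trib2 had 0 reads in every Piezo1cKO library, with 34, 28 and 24 and with 11, 6 and 8 reads in WT, respectively. Mycn was thus at least 8.97-fold lower. For Trib2 the bound was at least 2.6-fold.

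Among 14 genes listed as targets of MLL fusions, 8 rose, 5 fell and 1 was not called (median 0.15 on the deposited log2 scale). Among the largest were Lmo2, which fell to 60.4% of WT (adjusted p = 3.0e-12), Bcl2, which rose 1.56-fold (adjusted p = 5.8e-10), and Jmjd1c, which rose 1.46-fold (adjusted p = 1.9e-09). Of 16 regulators that keep the Hoxa genes on or off, 13 were tested, of which 2 rose, 6 fell and 5 were not called. Kmt2a, which encodes MLL, rose 1.53-fold (adjusted p = 9.1e-07). Psip1, the gene of the chromatin tether LEDGF, fell to 50.8% (adjusted p = 4.9e-09), the Polycomb methyltransferase gene Ezh2 to 66.7% (adjusted p = 3.5e-09) and Mllt10, the gene of the DOT1L partner AF10, to 64.9% (adjusted p = 3.8e-08). Reads of Kmt2a can come from the retroviral fusion where its sequence matches the mouse gene, and these could not be separated here.

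**Figure D5:**
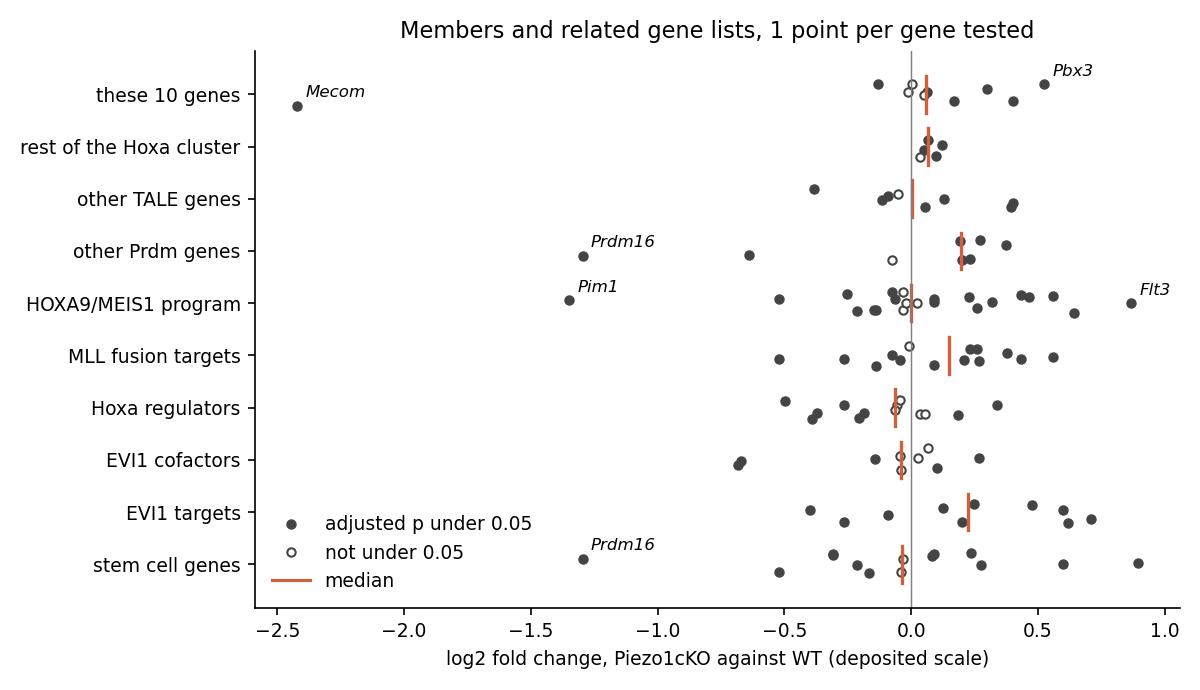
Deposited-scale log2 fold change, Piezo1cKO against WT, 1 point per gene tested, for the 10 genes and the related lists, filled where the adjusted p was under 0.05, with a bar at each median. Mecom at -2.42, Pim1 at -1.35 and Prdm16 at -1.30 lie farthest to the left, Flt3 stands at 0.87, and most lists have points on both sides of 0.

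Markers of the sorted cells were present in both genotypes. Of these, Kit, Cd34 and Ptprc rose in Piezo1cKO and Fcgr3 was not called, while the Sca-1 gene Ly6a, which the study's sort gated against, held 1, 1 and 0 reads in WT and 10, 17 and 7 in Piezo1cKO libraries. Of 19 stem cell genes, 14 were tested, and 6 rose and 6 fell. Gfi1b, a transcriptional repressor gene of stem cells and erythroid cells, rose 3.8-fold (adjusted p = 6.2e-12). Markers of maturing lineages also moved with genotype. Of 11 neutrophil genes tested 8 fell, with 519100 to 561200 summed normalized reads in WT and 267700 to 290600 in Piezo1cKO libraries, and of 8 mast cell and basophil genes 7 rose, with sums of 5014 to 5262 and 15860 to 15990. Of 7 erythroid genes tested 4 fell (sums of 318 to 367 and 111 to 137), and of 6 megakaryocyte genes tested 2 rose and 3 fell (sums of 290 to 346 and 275 to 316). Of 9 monocyte and macrophage genes tested 5 rose (sums of 12150 to 12640 and 13770 to 14020), of 5 B cell genes 4 rose (sums of 12230 to 12590 and 22360 to 22740), and both stroma and endothelium genes tested rose (sums of 2896 to 2943 and 3439 to 3692). Of 3 T cell genes tested 2 rose and 1 fell (sums of 61.6 to 69.6 and 78 to 123), and of 3 NK cell genes tested 2 rose and 1 fell (sums of 3990 to 4173 and 2478 to 2530). Cd3e, Ms4a1 and Ly6g define T cells, B cells and mature neutrophils and were named after their values were seen. Each was recovered at 0 reads in all 6 libraries. Recovery was poor for genes with a mean under 1 read, with 17.4% of values within 0.1 of a whole number. Single reads of these genes can therefore not be excluded, and absence of these cells was not tested. The part of the shifts in lineage markers in the values of the 10 genes was not tested.

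Over the 6 libraries, the genes whose deposited values followed those of Mecom, Hoxa9 and Meis1 most closely were sought among 10927 genes by Pearson's r, as a description. They were Gm37024, Pitpnb and Grk6 for Mecom (r of at least 0.9999), whose values separate the genotypes as Mecom does. For Hoxa9 they were Pdxdc1, Tpm3-rs7 and Polrmt (r of 0.985, 0.983 and 0.981), which have log2 fold changes between -0.01 and 0.01. For Meis1 they were Rbm28, Dennd3 and Mrps10 (r of 0.999, 0.996 and 0.994), which were each lower in Piezo1cKO libraries, by 0.24, 0.16 and 0.08 on the deposited log2 scale. The points share their libraries and, for Mecom, mostly the contrast between the genotypes.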

How the data were processed

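The authors trimmed the paired reads with fastp 0.20.1, aligned them to GRCm38 with HISAT2 2.2.1 and counted them per gene with featureCounts 2.0.1, with DESeq2 1.28.1 for the comparison, per the labels and the study's methods. The deposited table holds log2 values for 55367 genes in 6 libraries, of which 28965 are at 0 in all. The values have the form of the regularized log of DESeq2, which is shrunken, although the sources used here do not name it. The groups were taken from the labels. Inverting that transformation gave whole reads: of genes with a mean of 1 to 1000 reads, 94.6% of values came within 0.1 of a whole number, against 22.5% if the shrinkage strength was set 10% off. For the members with a mean in that range the share within 0.1 was 87.5%, and for genes with a mean under 1 read it was 17.4%. Above 1000 reads the values were rounded to the nearest whole number, and their error was not measured.

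The main test was limma 3.58.1 (R 4.3.3) with a mean-variance trend on the deposited values of 16746 genes (mean not below 1), with Benjamini-Hochberg adjustment over all of them. The alternative was limma-voom on recovered reads for 17352 genes with at least 10 reads in all. Normalized reads are recovered reads divided by the library's size factor. Read recovery and both fits were tested on simulated reads of genes with a mean of 1 to 1000 reads. These were transformed with the fitted settings, so the simulation could not test whether the assumed form of the deposited values is right. Replicates differed by more than counting noise in every pair (median chi-square per degree of freedom 1.39 to 1.72, over 6865 genes), so all 6 libraries were kept. Other alternatives left out each library, changed the filter, dropped the trend, scaled by library totals or a common median, or added a replicate block. Gene positions are from GENCODE M21 and promoters from RefSeq, both on GRCm38, and 96.7% of genes with values matched. Promoters were found for 9 of the 10 genes. Motifs were searched in 250 bases before each start.

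The genes named are the 10 members, Piezo1, the tested genes of the Hoxa cluster and of the TALE list, the 4 largest called changes of each other pathway list, genes within 1 Mb of Mecom and of other members that were DEGs, genes sharing exons with a member, and the 3 closest matches of Mecom, Hoxa9 and Meis1. Some genes that this rule names are not reported here. The members and the lists were chosen with earlier results of these data known. Gfi1b, Mycn, Trib2, the sort markers, Hoxa4, Hoxb4 and Hoxb13, and the zero-read lineage markers were named after their values were seen.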

Additional observations from a re-analysis of the deposited data

How the results depend on the processing

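The 7 calls and the 3 members not called kept their side of the threshold and, for the 7, their direction in every alternative in which they were tested, except that Hoxa6 passed with libraries shifted to a common median (0.07 against 0.05). The number of DEGs depended on the values tested: there were 137 genes and 1 member on deposited values, 4320 genes and 3 members on recovered reads, where the test (limma-voom) and the filter changed as well, and 4328 genes and 4 members with recovered reads scaled by library totals, where Pbx3 crossed the threshold of 1. The part of each change in this difference was not tested. Leaving out each library in turn gave 134 to 144 DEGs, with 7 members called and 1 member a DEG, on deposited values. The same on recovered reads, chosen after seeing the data, gave 3839 to 3994 DEGs, with 7 members called and 3 to 4 members as DEGs. Whether the replicate numbers pair the libraries is not given by the design, and the main test left them unpaired. Correlations of deviations were 0.195, 0.161 and 0.07 for equal numbers, each the highest for its library. They were -0.17 to 0.03 for unequal numbers, so the data hint at a weak pairing. The fit with the replicate block gave 137 DEGs, with 7 members called. Adjusted p of these 7 were smaller in that fit, such as 1.9e-24 against 3.9e-10 for Pbx3 (limma). Without the filter on low values there were 136 DEGs. The members with the fewest reads in all were Hoxa11 (0 to 12 per library) and Hoxa6 (11 to 25).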
